A study of Homo sapiens with 160 samples.

Results

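The comparison described here is mometasone furoate together with indacaterol against indacaterol alone after 2 h, in the human airway epithelial cell line BEAS-2B. Its members were the 5 libraries of each treatment labelled with that time, matched by replicate number, so that 10 of the 160 samples of the series were compared. Mometasone is a synthetic glucocorticoid used in inhaled asthma medicines, and indacaterol is a long-acting β2-agonist, a class of bronchodilators. Both groups had grown to confluence, had spent a night without serum and received 100 nM indacaterol, and the groups differed by 100 nM mometasone. Neither group received carbachol, the muscarinic agonist used in other samples of the series. Vehicle and mometasone alone at 2 h, with 5 libraries each, are given beside the comparison as its counterpart without indacaterol. BEAS-2B is 1 immortalised line, labelled wild type and taken from lung, and no label states that its replicates were grown as separate cultures. The p-values therefore cover only variation among libraries, part or all of which may be technical. Their spread was estimated over all 150 libraries fitted together, not over the 10 compared alone.

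Glucocorticoids bind the glucocorticoid receptor, a nuclear receptor encoded by NR3C1. The bound receptor moves to the nucleus, where it raises some genes through DNA elements of its own and lowers others, among them many inflammatory genes driven by NF-κB and AP-1. β2-agonists act through a Gs-coupled receptor that raises cyclic AMP, activates protein kinase A and switches on genes of the transcription factor CREB. The drugs are given together in asthma, and cyclic AMP on its own is known to raise some cytokine genes, interleukin-6 among them, in airway epithelial cells.

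Levels are the deposited values, a normalised signal per gene, and log2 changes and folds were computed on the value plus 1, which understates the change of low genes. A gene was called at a Benjamini-Hochberg adjusted p below 0.05 in limma over 14827 genes. The keratin genes KRT8 and KRT18 were high in all 10 libraries, while the epithelial markers EPCAM, KRT19 and TP63 had mean levels below 1 in both groups. The mesenchymal genes VIM and COL1A1 were high. The other mesenchymal markers, COL1A2, COL3A1, DCN, LUM and PDGFRA, were low, the highest mean being 2.59 for DCN with indacaterol. Of the markers of ciliated or secretory cells 4 of 4, of endothelium 3 of 3 and of immune cells 4 of 5 had means below 1, the exception being CD68, with 13.3 to 25.4. The summed epithelial markers ran from 1278 to 2220 with mometasone and indacaterol and from 3467 to 5833 with indacaterol alone, a gap carried by KRT17, described below. Summed mesenchymal markers ran from 2068 to 2428 and from 1834 to 2345, nearly all of it from VIM and COL1A1. One library stood apart: in indacaterol replicate 1, 27.7% of the summed signal lay in 13 mitochondrial genes, against 8.69% to 13.96% in the other 9, and its sum was 1449310 against 927940 to 1136520. For the main comparison and the gene lists, counts of called genes are also given without the libraries over 20% mitochondrial, where that changed them. Indacaterol replicate 1 is the 1 such library in this comparison.

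Mometasone added to indacaterol changed 2696 genes within 2 h, or 18.2% of those tested. Of these, 1420 (9.58% of genes tested) rose and 1276 (8.61%) fell. The largest rises were in TSC22D3, known as a glucocorticoid-induced leucine zipper gene, followed by RGCC, HRK, ANKRD1 and MT1X. The largest falls were in the cytokine genes IL6, IL11 and CCL2. At least 2-fold changes were more often rises, with 195 genes up (1.32% of genes tested) and 51 down (0.344%). The number of smaller changes depended on the matching of replicate numbers and on the libraries fitted together. With no such block limma called 617 genes (408 up, 209 down). A matched fit of the 10 compared libraries alone called 423 (305 up, 118 down), and the same without the block 342 (263 up, 79 down). Without replicate 1 of the compared groups 1185 were called (764 up, 421 down). Without all libraries over 20% mitochondrial it called 1491 (920 up, 571 down). Of the 246 genes changed at least 2-fold, 225 were still called without the block, 208 in the matched fit of the compared libraries alone and 236 without those libraries. When all libraries were rescaled to the same sum the median of all genes moved from 0.01 to 0.14 on the log2 scale, and the calls became 2395 up and 481 down.

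**Figure D1:**
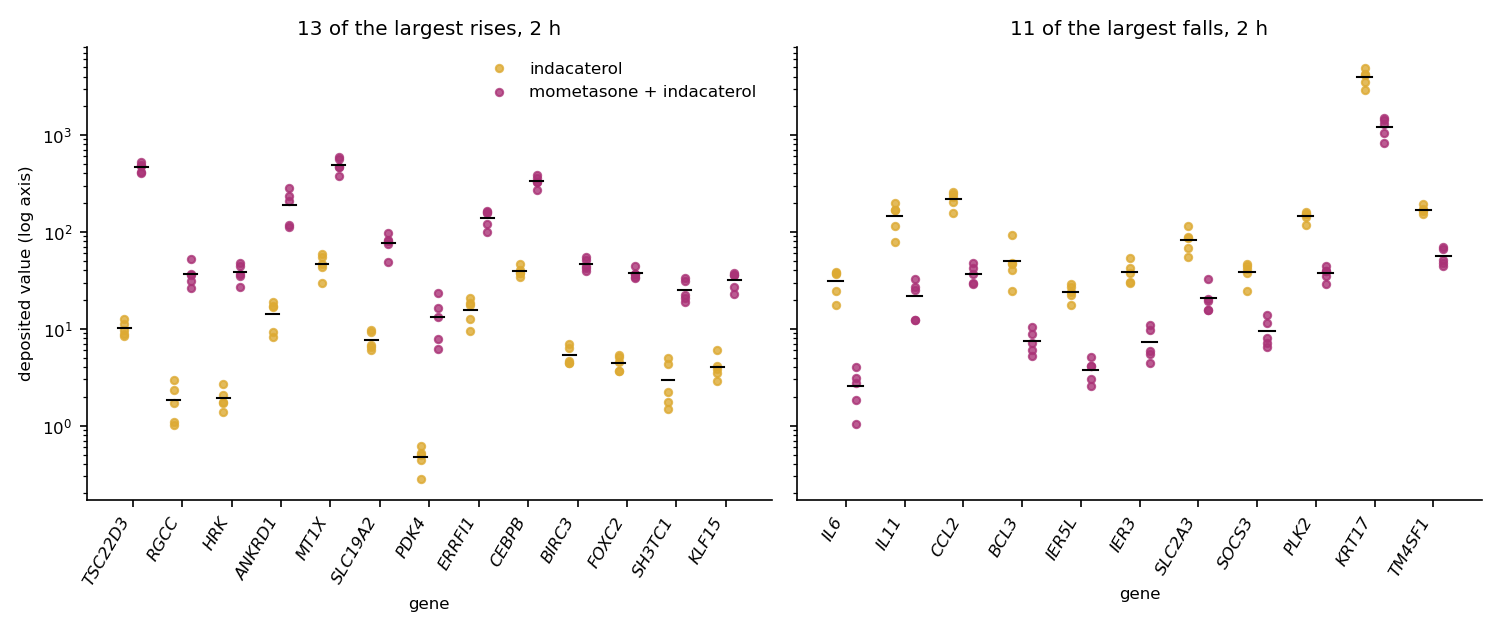
Deposited values (log axis) of 13 of the 14 genes with the largest rises and 11 of the 12 with the largest falls among called genes whose 5 pairs agreed in direction, at 2 h. Each point is 1 library and each bar the mean of 5. In all 24 genes the 5 libraries with mometasone and indacaterol lie apart from the 5 with indacaterol alone.

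Among the 14 largest rises, 8 belong to lists of known glucocorticoid targets, transcription factors of the KLF and C/EBP families or metallothioneins. Those lists were chosen with earlier results of these data known. TSC22D3 (chromosome X, 107713221 to 107777342, minus strand) had levels of 8.35, 12.59, 11.09, 9.63 and 8.83 in indacaterol replicates 1 to 5. With mometasone the levels were 405.19, 476.93, 522.55, 489.51 and 413.41. Every library with mometasone was thus far above every library without it. The rise was 41.9-fold (log2 5.39, SE 0.14, adjusted p = 2.11e-61).

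RGCC, a regulator of the cell cycle, rose 13.4-fold from 1.83 ± 0.841 to 36.5 ± 9.9 (SD, n = 5 each), with 26.58 as the lowest library with mometasone and 2.99 as the highest without. HRK, a BH3-only gene that promotes cell death, had levels of 2.7, 1.74, 1.73, 2.09 and 1.4 with indacaterol. Adding mometasone took them to 35.14, 36.76, 47.9, 44.72 and 26.91. The groups were separated by a wide gap, and the rise was 13.3-fold (log2 3.73, SE 0.17, adjusted p = 1.88e-37). ANKRD1, a nuclear cofactor known as a target of the YAP pathway, rose 12.5-fold from 14.1 ± 4.95 to 191 ± 75.5 (SD, n = 5 each). MT1X, a metal-binding metallothionein, rose 10.6-fold from 46.6 ± 11.6 to 494 ± 84.8 (SD, n = 5 each).

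The thiamine transporter gene SLC19A2 rose 8.92-fold from 7.64 ± 1.7 to 76.7 ± 17.6 (SD, n = 5 each). PDK4, a kinase that holds back the entry of pyruvate into the citric acid cycle, was below 1 in all 5 indacaterol libraries and between 6.15 and 23.46 with mometasone. ERRFI1, a feedback inhibitor of the EGF receptor, rose 8.58-fold from 15.7 ± 4.53 to 140 ± 28.3 (SD, n = 5 each).

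The transcription factor gene CEBPB rose 8.34-fold, from levels between 33.93 and 46.35 to levels between 273.38 and 386.34. BIRC3, an inhibitor of apoptosis that also acts in NF-κB signalling, rose 7.53-fold from 5.34 ± 1.21 to 46.5 ± 6.68 (SD, n = 5 each). FOXC2, a forkhead transcription factor gene, rose 7.02-fold from 4.46 ± 0.808 to 37.2 ± 4.34 (SD, n = 5 each). SH3TC1 rose 6.89-fold from 2.96 ± 1.6 to 25.2 ± 6.39, and KLF15 6.52-fold from 4.05 ± 1.18 to 31.8 ± 6.48 (SD, n = 5 each). The adjusted p of these 5 genes ran from 1.27e-20 for SH3TC1 to 9.79e-49 for FOXC2, and each rose in 5 of 5 pairs.

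Cytokine genes led the falls. IL6 (chromosome 7, 22725884 to 22732002, plus strand) had levels of 17.5, 37.94, 36.31, 38.7 and 24.5 with indacaterol. With mometasone they were 1.05, 3.12, 2.75, 3.99 and 1.82. The highest library with mometasone was well below the lowest without, and the fall was 9.06-fold (log2 -3.18, SE 0.20, adjusted p = 1.33e-26). IL11, a cytokine of the interleukin-6 family (chromosome 19, 55364389 to 55370463, minus strand), fell 6.55-fold. Its levels were 114.57, 166.46, 168.66, 198.84 and 79.06 with indacaterol and 12.43, 24.99, 32.71, 26.91 and 12.22 with both drugs (log2 -2.71, SE 0.19, adjusted p = 2.97e-24). CCL2, a chemokine that attracts monocytes, fell 5.77-fold (log2 -2.53, SE 0.15, adjusted p = 5.49e-30), and its mean went from 219 ± 41.3 to 37.1 ± 8 (SD, n = 5 each).

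BCL3, a nuclear IκB-like partner of NF-κB, fell 5.63-fold, from 50.1 ± 25.2 to 7.52 ± 2.1 (SD, n = 5 each). Its level of 92.11 in indacaterol replicate 1, the mitochondria-rich library, was the highest of the 10, and without replicate 1 the log2 change was -2.14 rather than -2.49. IER5L fell 5.25-fold and IER3, a stress-response gene regulated by NF-κB, fell 4.88-fold from 38.7 ± 9.84 to 7.3 ± 2.82 (SD, n = 5 each). The glucose transporter gene SLC2A3 fell 3.88-fold from 82.5 ± 22.3 to 20.7 ± 6.95 (SD, n = 5 each). SOCS3, an inhibitor of cytokine receptor signalling that cytokines of the interleukin-6 family induce, also fell 3.88-fold, from 38.9 ± 8.53 to 9.42 ± 3.17 (SD, n = 5 each).

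The kinase gene PLK2 fell 3.84-fold from 146 ± 16.7 to 37.4 ± 6.03 (SD, n = 5 each). KRT17, a keratin of basal and stressed epithelium, had levels of 4950.9, 4267.74, 2915.26, 3522.87 and 4112.55 with indacaterol. With mometasone they were 1045.08, 1495.86, 834.77, 1280.85 and 1423.48. The fall was 3.27-fold (log2 -1.71, SE 0.15, adjusted p = 2.24e-17). KRT17 has close copies in KRT16 and KRT17P1, so its reads may have been shared among them. TM4SF1, a tetraspanin-like membrane protein gene, fell 3.04-fold from 170 ± 15.1 to 55.9 ± 11.4 (SD, n = 5 each). In all 26 of these largest changes the ranges of the groups did not overlap, which held for 3.35% of genes tested, and all 26 kept their calls in each of the 17 alternative analyses. They were chosen from the same libraries as called genes with the largest changes and agreeing pairs, which favours both outcomes.

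Known glucocorticoid targets rose nearly as a whole. Of 29 listed genes all were tested, 27 rose and 0 fell, with a median log2 change of 1.95 beside 0.01 over all genes. The list was chosen with earlier results of these data known, so these counts are not independent support. Without the libraries over 20% mitochondrial 26 rose, and without the block 25. For this list and those below, the shares over all genes tested were 9.58% up and 8.61% down. Outside the genes already named, FKBP5, a chaperone of the receptor complex, rose 3.87-fold from 20.9 ± 2.98 to 84.1 ± 15.7 (SD, n = 5 each). ZFP36, which encodes an RNA-binding protein that promotes the decay of cytokine mRNA, rose 4.51-fold from 11 ± 2.46 to 52.5 ± 7.87 (SD, n = 5 each). The 2 members that did not pass were SGK1, a kinase that regulates ion transport, at log2 0.41 (adjusted p = 0.0560), and ANGPTL4, a lipase inhibitor, at 0.08.

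SGK1 (chromosome 6, 134169246 to 134318112, minus strand) was already high with indacaterol, at 78.58, 182.23, 220.96, 217.24 and 84.98. With both drugs it stood at 144.97, 226.08, 249.32, 226.81 and 133.24. The ranges overlapped, although all 5 pairs were higher with mometasone. Its change passed the threshold in 4 of the 17 alternatives, such as after rescaling to the same sum, and over all 17 its adjusted p ran from 0.021 to 0.785.

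**Figure D2:**
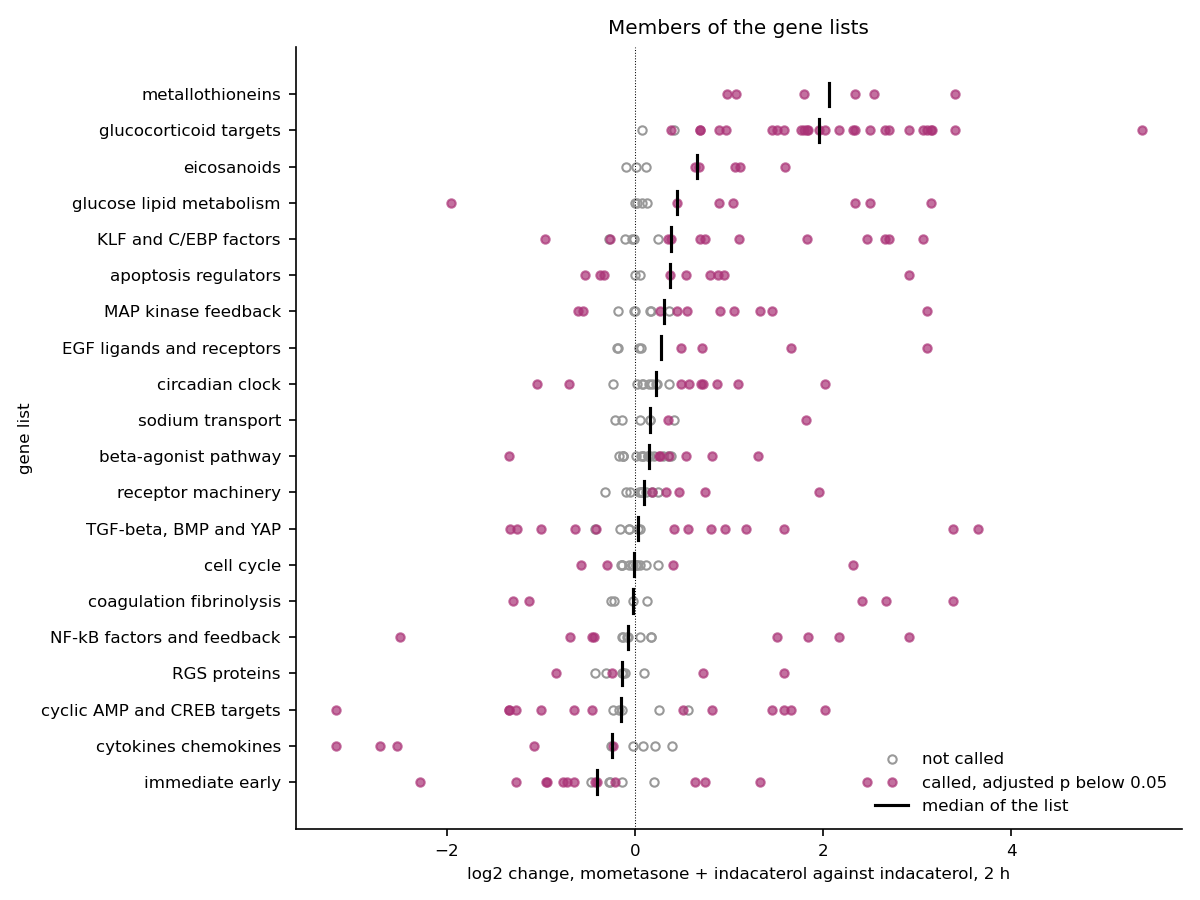
Log2 change at 2 h of each tested member of 20 gene lists, 1 point per gene, filled where limma called it, with a bar at the median of the list. Metallothioneins and glucocorticoid targets have the highest medians, 2.07 and 1.95, and the immediate early list the lowest, -0.40.

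The machinery of the receptors moved less. Of 16 genes for the glucocorticoid receptor, its chaperones and cofactors 5 rose and 0 fell, with a median log2 change of 0.10. Without the libraries over 20% mitochondrial 4 rose and 1 fell, and without the block 1, FKBP5, rose. NR3C1, the receptor gene itself, ranged from 41.94 to 88.45 with indacaterol and from 28.18 to 66.38 with both drugs. Its log2 change was -0.31 (SE 0.13) and did not pass (adjusted p = 0.0755), although it did without replicate 1 (log2 -0.43, adjusted p = 0.0414). The coactivator gene NCOA3 had a log2 change of 0.75 with the block (adjusted p = 1.10e-10) and an adjusted p = 0.129 without it.

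The list of 22 genes of β-agonist signalling had a median log2 change of 0.15. Of these, 6 rose (27.3%, beside 9.58% of all genes tested) and 1 fell (4.55%, beside 8.61%). Those counts became 3 and 1 without the libraries over 20% mitochondrial, and 1 and 1 without the block. Of the phosphodiesterases, which break down cyclic AMP, PDE4B fell 2.53-fold from 4.72 ± 2.67 to 1.12 ± 0.466, while PDE4D rose 1.77-fold from 18.7 ± 9.83 to 33.1 ± 13.4 (SD, n = 5 each). PDE4D was no longer called without the block (adjusted p = 0.332), and PDE4B was not called when the compared groups were fitted alone (adjusted p = 0.0781 with the block). AKAP12, which anchors protein kinase A, rose 2.48-fold from 58.3 ± 25.1 to 143 ± 54.8 (SD, n = 5 each).

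Targets of cyclic AMP and CREB went in both directions. Of 18 tested members 6 rose and 7 fell, with a median log2 change of -0.15, where rescaling to the same sum gave 6 and 5 and leaving out the libraries over 20% mitochondrial 5 and 6. PER1, a clock gene, rose 4.05-fold, from 66.92, 65.49, 76.49, 60.85 and 48.34 with indacaterol to 225.66, 251.55, 346.5, 227.07 and 254.7 with both drugs. AREG, which encodes amphiregulin, a ligand of the EGF receptor, rose 3.17-fold from 3.85 ± 0.986 to 14.2 ± 2.59 (SD, n = 5 each). RGS2, which limits Gq signalling downstream of muscarinic receptors, rose 3.01-fold (log2 1.59, SE 0.13, adjusted p = 5.73e-20), from a mean of 55.8 ± 9.58 to 168 ± 9.05 (SD, n = 5 each). The orphan nuclear receptor genes NR4A2 and NR4A3 fell by 1.34 and 0.99 on the log2 scale, and IL6 belongs to this list too.

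The called inflammatory mediators all fell. Of 20 listed cytokine and chemokine genes 10 were tested. Of these, 0 rose and 5 fell: IL6, IL11, CCL2, the interleukin-6 family member LIF and the adhesion receptor ICAM1. LIF fell 2.1-fold from 8.3 ± 3.57 to 3.35 ± 1.55 (SD, n = 5 each), and ICAM1 fell by 0.24 on the log2 scale. CXCL1, CXCL2, CCL20, IL32 and IL33 did not pass, with log2 changes from -0.26 to 0.39, and CXCL8, TNF, IL1B and 7 other members were too low to test.

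The factors and feedback inhibitors of NF-κB split into opposite groups. Of 15 tested members 4 rose and 4 fell, and the counts were 4 and 2 without the libraries over 20% mitochondrial and 5 and 2 after rescaling to the same sum. NFKBIA, the inhibitor IκBα, rose 3.58-fold, from 35.24, 33.29, 25.18, 30.44 and 33.11 to 114.8, 110.76, 123.18, 96.52 and 129.45. TNFAIP3, the ubiquitin-editing enzyme A20, rose by 1.51 on the log2 scale, and ZFP36 and BIRC3 are given above. The genes that fell were BCL3, NFKB2 (log2 -0.45), RELB (-0.43) and the inhibitor NFKBIE (-0.69). NFKB1 and RELA, which encode the main subunits of the factor, had changes of 0.06 and 0.17 and did not pass.

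Immediate early genes mostly fell. Of 19 tested members 4 rose and 10 fell, with a median log2 change of -0.40. There were 4 and 9 without the libraries over 20% mitochondrial, and 4 and 6 both without the block and after rescaling to the same sum. FOSB, a member of AP-1, fell 2.39-fold from 6.98 ± 3.78 to 2.15 ± 0.758 (SD, n = 5 each). FOS, FOSL1, JUN, JUNB and JUND also fell, by 0.42 to 0.93 on the log2 scale. FOSL2 was the AP-1 gene that rose, 2.51-fold from 72.7 ± 22.9 to 182 ± 49.7 (SD, n = 5 each). EGR1 did not pass, at log2 -0.47, while the Krüppel-like factor gene KLF4 rose 5.52-fold from 3.09 ± 1.19 to 21.7 ± 7.65 (SD, n = 5 each).

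Of 16 tested feedback inhibitors of MAP kinases 8 rose and 2 fell, at a median log2 change of 0.31. Without the block 5 rose and 1 fell, and without the libraries over 20% mitochondrial 7 and 2. DUSP1, a phosphatase that switches off MAP kinases (chromosome 5, 172768090 to 172771195, minus strand), had levels of 147.67, 254.29, 286.22, 213.81 and 166.32 with indacaterol. With both drugs the levels were 455.34, 633, 723.76, 598.01 and 493.21. The lowest of the latter exceeded the highest of the former, and the rise was 2.75-fold (log2 1.46, SE 0.10, adjusted p = 1.21e-23). DUSP5, an ERK-specific phosphatase, rose 2.52-fold from 34 ± 10.5 to 87.4 ± 26.3, and SPRY2, an inhibitor of growth factor signalling, rose 2.07-fold from 10.1 ± 2.53 to 21.7 ± 3.65 (SD, n = 5 each). DUSP8 and DUSP14 fell by 0.55 and 0.60 on the log2 scale.

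The stretch of up to 250 bases before the start of IL6, IL11, DUSP1 and AREG is shown here because indacaterol raised all of these genes and mometasone then lowered the first pair and raised the second. The sequences are from RefSeq (GRCh38.p14), read 5′ to 3′ on the gene's strand, and bases inside an annotated exon were left out. Of the 81 named genes 42 had an entry. In IL6 (chr7:22726950-22727146, plus strand) capitals mark a κB-like motif near the 3′ end and TGACG, the core of the cyclic AMP response element, on either strand. For IL11 (chr19:55370464-55370713, minus strand) they mark TGANTCA, the AP-1 motif. For DUSP1 (chr5:172771196-172771445, minus strand) and AREG (chr4:74444886-74445133, plus strand) they mark TGACGTCA, the full cyclic AMP response element.
IL6: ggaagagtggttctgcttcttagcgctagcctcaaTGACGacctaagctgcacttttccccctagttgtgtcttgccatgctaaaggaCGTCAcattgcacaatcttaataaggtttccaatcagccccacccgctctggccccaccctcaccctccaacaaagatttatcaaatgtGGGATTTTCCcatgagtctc
IL11: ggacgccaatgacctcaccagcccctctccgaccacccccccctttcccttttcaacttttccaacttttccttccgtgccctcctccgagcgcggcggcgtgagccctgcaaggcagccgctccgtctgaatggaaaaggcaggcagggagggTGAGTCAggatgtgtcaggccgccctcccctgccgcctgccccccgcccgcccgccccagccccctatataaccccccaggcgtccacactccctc
DUSP1: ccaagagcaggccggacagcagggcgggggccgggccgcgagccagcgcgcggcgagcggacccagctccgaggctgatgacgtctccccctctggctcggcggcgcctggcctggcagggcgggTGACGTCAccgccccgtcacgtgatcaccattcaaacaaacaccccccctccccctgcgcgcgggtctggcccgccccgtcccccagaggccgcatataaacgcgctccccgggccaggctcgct
AREG: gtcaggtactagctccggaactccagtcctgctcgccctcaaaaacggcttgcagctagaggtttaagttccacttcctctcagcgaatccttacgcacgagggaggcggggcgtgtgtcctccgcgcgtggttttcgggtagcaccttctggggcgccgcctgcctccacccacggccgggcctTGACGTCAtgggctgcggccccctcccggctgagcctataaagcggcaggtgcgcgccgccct
Searched on both strands in 22015 windows of 250 bases, the κB-like motif was in 1.76%, TGACG in 21.4%, TGANTCA in 6.81% and TGACGTCA, which contains TGACG, in 1.82%. In the 7675 windows of tested genes the shares were 2.03%, 31.0%, 3.88% and 3.23% in the same order. The palindromic consensus of the glucocorticoid response element was in 0.00454% of all windows and a looser form of it in 0.35%. In windows of tested genes these shares were 0.0% and 0.104%. Of the 42 windows 0 held either, which says only that these letters are not in these windows. TGACGTCA was in 2 of the 42, DUSP1 and AREG.

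Transcription factor genes of the KLF and C/EBP families rose in 10 of 17 cases and fell in 2, with a median log2 change of 0.38, and 8 rose and 2 fell without the libraries over 20% mitochondrial. Beside KLF15, KLF4 and CEBPB, KLF6 rose 6.33-fold from 24.8 ± 13.3 to 155 ± 60.7 (SD, n = 5 each). KLF9, a textbook target of steroid hormones, rose by 1.83 on the log2 scale, and CEBPA fell by 0.96. In the circadian list 7 of 18 members rose and 2 fell, although without the block 3 rose and 0 fell. Next to PER1, the repressor gene NFIL3 rose 2.13-fold from 20.8 ± 5.51 to 44.2 ± 1.23, and CIART 1.83-fold from 7.08 ± 1.64 to 13.7 ± 2.23 (SD, n = 5 each). BHLHE40 fell 2.06-fold from 67.2 ± 29.3 to 31.4 ± 13.1 (SD, n = 5 each), a call that was lost without the block (adjusted p = 0.0635).

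All 6 tested metallothionein genes rose, with a median log2 change of 2.07, and 5 of them without the block. MT2A rose 3.49-fold, from 1030.23, 1003.57, 706.33, 940.61 and 1395.29 to 2818.87, 3569.18, 2719.95, 3864.76 and 4682.01. MT1E rose 5.83-fold from 37.7 ± 13.1 to 219 ± 49.4 (SD, n = 5 each). These genes are close copies of each other on chromosome 16, so how the authors' counting divided their reads is uncertain.

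Genes of prostaglandin synthesis and response rose rather than fell. Of 8 tested members 5 rose and 0 fell, at a median log2 change of 0.66. PTGER4, a receptor for prostaglandin E2, rose 3.03-fold from 1.9 ± 0.528 to 7.75 ± 1.33 (SD, n = 5 each). PTGS2, the inducible cyclooxygenase, was low throughout, at 0.08, 0.27, 0.2, 0.21 and 0.3 with indacaterol. With both drugs it stood at 1.74, 1.72, 2.43, 1.13 and 1.32, higher in every library (log2 1.12, SE 0.12, adjusted p = 1.73e-13). PLA2G4A, the phospholipase that frees arachidonic acid, rose 2.09-fold from 0.58 ± 0.251 to 2.42 ± 1.13 (SD, n = 5 each). ANXA1, often named as a glucocorticoid-induced inhibitor of that enzyme, did not pass, with a log2 change of 0.01.

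Of the EGF ligands, receptors and inhibitors 4 of 8 rose and 0 fell. EGFR itself rose 1.64-fold from 41.1 ± 10.9 to 67.8 ± 14.5, and the ligand gene HBEGF rose 1.41-fold from 11.4 ± 3.23 to 16.3 ± 4.47 (SD, n = 5 each). Both had overlapping ranges, and EGFR was not called without the block (adjusted p = 0.110). In the list for TGF-β, BMP and YAP 8 of 19 rose and 5 fell, or 8 and 4 without the libraries over 20% mitochondrial. CCN2, a matricellular growth factor, rose 3-fold from 264 ± 85.3 to 768 ± 130, while BMP4 fell 2.51-fold from 63.7 ± 9.41 to 24.7 ± 2.51 (SD, n = 5 each). CCN1, the closest relative of CCN2, fell by 0.64 on the log2 scale, and the BMP inhibitor genes BAMBI and NOG by 1.26 and 1.00.

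Coagulation and fibrinolysis genes changed on both sides of the balance. Of 9 members 3 rose and 2 fell. PLAT, which encodes tissue plasminogen activator (chromosome 8, 42175233 to 42207724, minus strand), had levels of 31.84, 48.55, 48.4, 66.91 and 33.28 with indacaterol. With both drugs the levels were 202.73, 314.36, 280.72, 493.83 and 214.2. PLAT rose 6.35-fold (log2 2.67, SE 0.15, adjusted p = 3.56e-30). THBD, the anticoagulant thrombomodulin gene, rose 5.34-fold from 3.87 ± 0.927 to 25.2 ± 5.89 (SD, n = 5 each). F3, tissue factor, which starts coagulation, fell 2.45-fold from 109 ± 33.8 to 44.5 ± 15.6 (SD, n = 5 each), and the urokinase receptor gene PLAUR fell by 1.13 on the log2 scale.

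Among 8 genes of sodium transport 2 rose, SCNN1A and WNK1, but the count was 5 after rescaling to the same sum and 1 with median-ratio scaling or without the block. The 2 of 8 are 25.0%, beside 9.58% of all genes tested. SCNN1A, a subunit of the epithelial sodium channel, rose 3.54-fold from 2.23 ± 0.73 to 10.5 ± 3.19 (SD, n = 5 each). WNK1 (log2 0.35) was higher in 3 of 5 pairs, and its call was lost in 11 of the alternatives. CFTR had means of 1.97 and 1.74 and did not pass. In the metabolic list 6 of 11 rose, 5 of them without the libraries over 20% mitochondrial, and 1, SLC2A3, fell. IRS2, an adaptor of insulin signalling, rose 5.67-fold from 11.7 ± 3.31 to 70.2 ± 15, and LPIN1, a phosphatidate phosphatase of lipid synthesis, rose 5.08-fold from 30.1 ± 8.63 to 157 ± 46.1 (SD, n = 5 each).

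Regulators of apoptosis rose in 6 of 11 cases and fell in 3, but none of the 3 falls passed without the block or after rescaling to the same sum. Without the libraries over 20% mitochondrial 6 rose and 1 fell. BH3-only genes went both ways: PMAIP1 and BMF were called higher, and BCL2L11 and BBC3, at log2 -0.53 and -0.37, were called lower along with BAX (-0.33). MCL1, a survival gene, rose 1.93-fold from 68.2 ± 17.8 to 132 ± 27, and PMAIP1, a BH3-only gene, rose 1.85-fold from 9.11 ± 1.66 to 17.6 ± 2.52 (SD, n = 5 each). Of 16 cell cycle genes 2 rose and 2 fell, or 12.5% each way beside 9.58% and 8.61% of all genes tested. CDKN1C, an inhibitor of cyclin-dependent kinases, rose 5-fold from 5.21 ± 3.53 to 28.7 ± 13, while its relative CDKN1B fell 1.49-fold from 91.9 ± 9.33 to 61.4 ± 5.52 (SD, n = 5 each). Proliferation genes such as MKI67 and TOP2A had log2 changes of -0.15 and -0.03. Of 10 regulators of G protein signalling 2 rose, RGS2 and RGS4, and 2 fell, RGS3 and RGS19, of which 1 fell without the libraries over 20% mitochondrial. RGS3 fell 1.79-fold from 9.06 ± 2.3 to 4.52 ± 0.654 (SD, n = 5 each).

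Whether mometasone acted differently with indacaterol than without it was tested by setting the change against that between mometasone alone and vehicle, which shares no library with it. Mometasone alone raised 480 genes and lowered 265 (3.24% and 1.79% of genes tested, 5.02% in all). Of the 480, 385 (80.2%) also rose when it was added to indacaterol, which is 27.1% of the 1420 that rose there. Of the 265 that fell, 157 (59.2%) also fell on indacaterol, or 12.3% of the 1276. The difference between the changes was called for 294 genes (1.98% of genes tested), 160 above and 134 below 0 (1.08% and 0.904% of genes tested), and without the block for 60. Without the libraries over 20% mitochondrial the difference was called for 230 genes and the change with mometasone alone for 857.

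**Figure D3:**
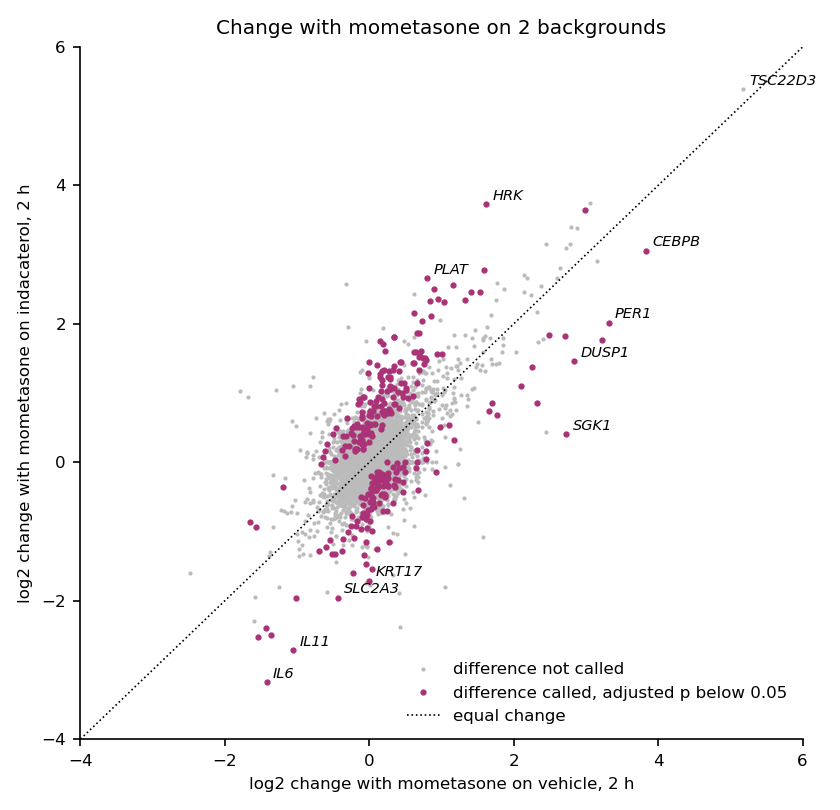
Log2 change with mometasone on vehicle (x axis) and on indacaterol (y axis) at 2 h, 1 point per gene tested, filled where limma called the difference. HRK and PLAT lie above the line of equal change and SGK1, DUSP1, PER1, KRT17 and IL6 below it.

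All 14 of the largest rises were also raised by mometasone alone, and 9 of the 12 largest falls were lowered by it. The difference was called for 4 of those rises and 9 of those falls. These genes were chosen for a large change on indacaterol, which is part of that difference, so the choice favours such calls. TSC22D3 stood at 7.52 ± 1.04 with vehicle and 305 ± 23.1 with mometasone alone (SD, n = 5 each), a log2 change of 5.17 against 5.39 on indacaterol, and the difference of 0.22 (SE 0.19) did not pass (adjusted p = 0.628). HRK went from 1.54 ± 0.357 to 6.83 ± 1.52 with mometasone alone (SD, n = 5 each), so that its change was larger on indacaterol by 2.12 (SE 0.24, adjusted p = 1.52e-10). PLAT was 31.1 ± 8.06 with vehicle and 56 ± 19.6 with mometasone (SD, n = 5 each), a difference of 1.87 in favour of the indacaterol background (SE 0.22, adjusted p = 1.50e-10). Larger log2 changes on indacaterol were also called for CDKN1C (by 1.29), SH3TC1 (1.19), LPIN1 (1.02), DUSP5 (1.00), RGS2 (0.97) and PTGS2 (0.95).

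For other glucocorticoid targets the log2 change was smaller on indacaterol. DUSP1 was at 49.4 ± 4.8 with vehicle and 359 ± 37.8 with mometasone alone (SD, n = 5 each), a log2 change of 2.84 against 1.46 on indacaterol, and the difference was -1.38 (SE 0.15, adjusted p = 6.31e-12). On the scale of the level itself, mometasone added 310 on vehicle and 367 on indacaterol, so the direction of this difference depends on the scale. PER1 changed by 3.31 on vehicle and 2.02 on indacaterol (difference -1.30, SE 0.20, adjusted p = 1.27e-06), while the added level was 186 and 197. SGK1 went from 11.4 ± 2.13 to 81.4 ± 16.3 with mometasone alone (SD, n = 5 each), and its difference of -2.32 (SE 0.22, adjusted p = 1.03e-13) came with the same order on the scale of the level: the level added was 39.3 on indacaterol and 70.0 on vehicle. CEBPB and NFKBIA had differences of -0.77 and -0.64, both called. Means with vehicle, mometasone, indacaterol and both drugs were 18.9, 280, 39.2 and 334 for CEBPB and 22.5, 130, 31.5 and 115 for NFKBIA. On the scale of the level mometasone thus added more on indacaterol for CEBPB and less for NFKBIA.

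**Figure D4:**
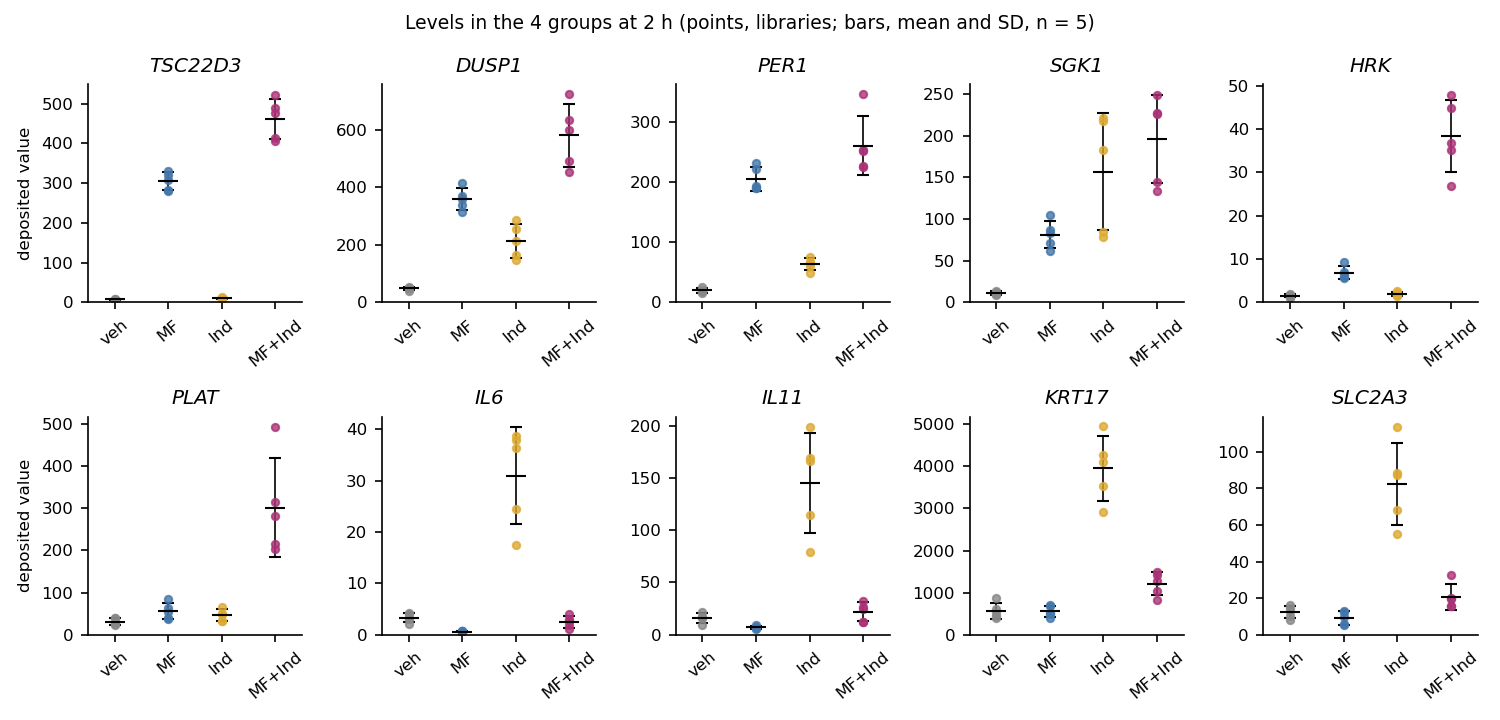
Deposited values (linear axes, each from 0) of 10 genes in the 5 libraries of vehicle (veh), mometasone (MF), indacaterol (Ind) and both drugs at 2 h, with mean and SD. TSC22D3 is high in both groups with mometasone, HRK and PLAT are highest with both drugs, and IL6, IL11, KRT17 and SLC2A3 are highest with indacaterol alone.

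Of the 1276 genes that fell, 261 (20.5%) were called higher with indacaterol than with vehicle, which is 26.8% of the 974 that indacaterol raised. Of the 1420 that rose, 235 (16.5%) were called higher with indacaterol, or 24.1% of the 974, so genes raised by indacaterol went both ways. Of the 12 largest falls 10 were called higher with indacaterol than with vehicle, and of the 14 largest rises 2 were, where indacaterol raised 6.57% of genes tested and lowered 3.66%, 10.2% in all. That contrast shares the indacaterol libraries with the main one, so the levels are given side by side. IL6 was 3.34 ± 0.833 with vehicle, 0.602 ± 0.12 with mometasone, 31 ± 9.49 with indacaterol and 2.55 ± 1.14 with both (SD, n = 5 each). The change with mometasone was larger on indacaterol by 1.76 on the log2 scale in the downward direction (difference -1.76, SE 0.29, adjusted p = 7.13e-06). The 1 added to each value understates the fall most on vehicle, where IL6 was low, and so enlarges this difference. IL11 had means of 15.9, 6.97, 146 and 21.9 in the same order (difference -1.66, SE 0.27, adjusted p = 4.59e-06).

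KRT17 was among the falls that mometasone alone did not produce to a called extent. Its means were 565 with vehicle and 555 with mometasone alone, a log2 change of -0.01 that did not pass, against 3954 with indacaterol and 1216 with both. The difference of -1.70 (SE 0.22, adjusted p = 5.03e-09) was called. The lowest library with both drugs, at 834.77, lay below the highest with vehicle, at 860.69. TM4SF1 and SLC2A3 had the same order, with means of 28.9, 24.5, 170 and 55.9 for TM4SF1 and of 12.4, 9.19, 82.5 and 20.7 for SLC2A3, and neither was called with mometasone alone. IER3 did not pass the test between indacaterol and vehicle (means of 38.7 and 42.8) and fell with mometasone on both backgrounds.

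The same comparison was made at 1, 6 and 18 h, with 5 pairs at 1 and 6 h and 4 at 18 h. limma called 354 genes at 1 h (2.39% of genes tested, 1.58% up and 0.809% down). It called 4059 at 6 h (27.4%, 15.2% up and 12.2% down) and 3677 at 18 h (24.8%, 12.5% up and 12.3% down). All 14 largest rises and all 12 largest falls of 2 h were called in the same direction at each of the other times. These genes were chosen for the size of their change at 2 h, so their sizes at other times are given as values only. A test of the change at each time against that at 2 h, chosen after the values were seen, called 3.43% of all genes at 1 h, 16.5% at 6 h and 18.5% at 18 h. Indacaterol replicate 1 at 1 h (21.3% mitochondrial, others 7.61% to 17.4%) and replicate 1 with both drugs at 6 h (28.0%, others 6.59% to 16.8%) stood apart like the library at 2 h. Without the libraries over 20% mitochondrial the counts at the same times were 440, 3690 and 4025. The largest changes kept their calls except 1 of the 12 falls at 1 h.

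**Figure D5:**
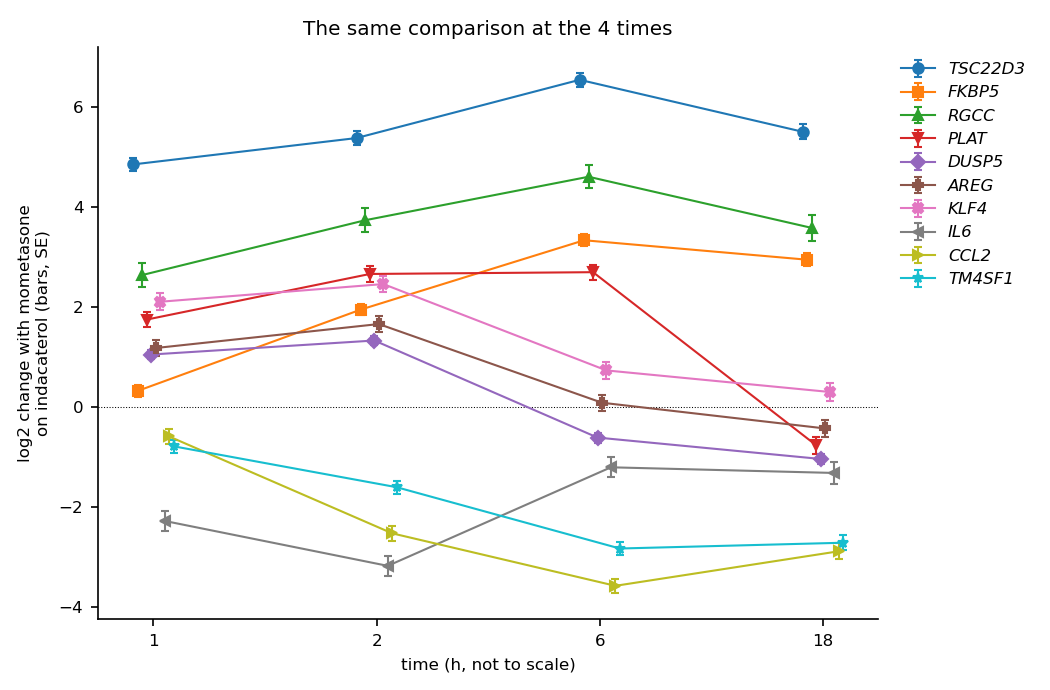
Log2 change with mometasone on indacaterol at 1, 2, 6 and 18 h (time axis not to scale) of 10 genes, with SE from the fit. TSC22D3, RGCC and FKBP5 have their highest estimates at 6 h, KLF4, AREG and DUSP5 decline after 2 h, PLAT falls below 0 at 18 h, and CCL2 and TM4SF1 are lower at 6 h than at 2 h.

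FKBP5 was not yet called at the first time. At 1 h it stood at 20.2 ± 2.08 with indacaterol and 27.4 ± 12.6 with both drugs (SD, n = 5 each; log2 0.33, adjusted p = 0.171), at 2 h its log2 change was 1.95, and at 6 h it was 3.34, with 23.5 ± 1.56 against 249 ± 28.5 (SD, n = 5 each). PLA2G4A went from a log2 change of 0.10 at 1 h to 1.06 at 2 h and 3.53 at 6 h. CCL2 had a change of -0.59 at 1 h, -2.53 at 2 h and -3.58 at 6 h, the last with 182 ± 40.8 against 14.5 ± 4.12 (SD, n = 5 each), and the step from 2 to 6 h was called (adjusted p = 5.89e-05). IL6 had log2 changes of -1.21 at 6 h and -1.32 at 18 h, times at which indacaterol alone left it at 1.79 ± 0.486 and 2.25 ± 0.725 (SD, n = 5 each).

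Other rises of 2 h were no longer called, or had turned, by 18 h. KLF4 had log2 changes of 2.11, 2.46, 0.73 and 0.30 at 1, 2, 6 and 18 h, the last of which did not pass. THBD went from 1.93 and 2.42 to 1.34 and then -0.12, again not called at 18 h. DUSP5 turned, with changes of 1.05 and 1.33 at 1 and 2 h and of -0.61 and -1.04 at 6 and 18 h, all of them called. PLAT kept its rise at 6 h (log2 2.70) and fell at 18 h, from 20.6 ± 4.5 (SD, n = 5) to 12.1 ± 2.87 (SD, n = 4; log2 -0.76, SE 0.17, adjusted p = 1.22e-04). NR3C1, the glucocorticoid receptor gene, fell at 6 h (log2 -1.02) and 18 h (-0.96).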

How the data were processed

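The authors deposited 1 table of 29273 genes by library, a normalised signal named TPM whose columns sum to different totals. How it was scaled, the quantifier, the annotation and the counting strand: not given in the sources used here. Read depth is therefore unknown. Libraries were made from total RNA of BEAS-2B cells with an mRNA kit and run on an Illumina NextSeq, per the labels' protocols. Reads were converted with bcl2fastq 2.17.1.14 and aligned with STAR 2.4.2a to GRCh38, per the submitters' processing notes. The unit differs from the TPM first assumed, and the test on log2 values was kept.

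Of the value columns 150 matched the labels of 1 sample each and 10 were not used, 4 marked as excluded and 6 headed 8 h. The 13 mitochondrial genes stayed in. A gene was kept where 5 or more libraries had a value of 1 or higher (14827 of 29273). limma 3.58.1 in R 4.3.3 was fitted to log2(value + 1) of the 150 libraries, with 32 treatment and time groups and replicate number within time as a block, a mean-variance trend and Benjamini-Hochberg adjustment (102 residual degrees of freedom). Same-numbered libraries of the compared groups deviated together in replicates 2 to 5 (correlations of 0.146 to 0.519) and not in replicate 1 (-0.03). The same number gave the closest match only in replicates 3 and 4. Replicate 5 with both drugs was closer to indacaterol replicate 1 (0.549), and replicate 2 with both drugs to indacaterol replicate 4 (0.162). The check therefore does not establish the pairing, and results without the block are given too. The fit was also run on data simulated from the same model with its block, which cannot check the pairing or the mitochondria-rich libraries. There 13 of 188 called genes (6.91%) were false calls, and 74.2% of genes changed by 0.5 on the log2 scale were called.

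Named genes were the 14 largest rises and 12 largest falls among called genes whose 5 pairs agreed in direction, up to 4 members with the largest change of each of 20 gene lists, and the receptor gene NR3C1. Some genes that the rule selects are not reported here, and counts over the largest changes include them. Other genes named for their value were chosen after it was seen. Members and lists were chosen with earlier results of these data known. Alternatives changed the pseudocount, filter, block, libraries fitted and scaling, left out replicates or mitochondria-rich libraries, or added the mitochondrial share. A fit of the compared groups alone with no block, and fits of the other times without mitochondria-rich libraries, were added after seeing the data. Coordinates are from GENCODE 29 (GRCh38).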

Additional observations from a re-analysis of the deposited data

Results flagged for a closer look

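Among the named genes, 7 of the 154 sets of 5 libraries tested held a library far from the other 4, where chance gives about 1 in 20. With both drugs these were SLC2A3 in replicate 2 (32.51, others 15.55 to 20.07) and PER1 in replicate 3 (346.5, others 225.66 to 254.7). The same group held CIART in replicate 4 (9.81, others 13.94 to 15.16), PMAIP1 in replicate 5 (13.28, others 17.67 to 19.33) and RGS4 in replicate 3 (4.34, others 1.62 to 2.36). With indacaterol alone they were CFTR in replicate 5 (3.46, others 1.28 to 1.85) and RGS14 in replicate 1 (15.71, others 7.52 to 9.44).

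Several named genes had a log2 change with mometasone on indacaterol above 0 at 2 h and below 0 at a later time. For those given here limma called the difference between times. DUSP5 had -0.61 at 6 h and -1.04 at 18 h (adjusted p of the difference from 2 h = 5.00e-22 and 3.33e-27). PLAT had -0.76 at 18 h (adjusted p = 2.48e-25) and AREG -0.43 at 18 h (adjusted p = 5.18e-12). HBEGF had -0.53 at 18 h (adjusted p = 1.36e-05), PMAIP1 -0.11 (adjusted p = 5.93e-05) and PDE4D -0.40 (adjusted p = 0.00107). RGS4 had -0.66 at 6 h (adjusted p = 1.01e-04) and -0.40 at 18 h (adjusted p = 0.00256). These p-values are for the difference from 2 h. In limma's test of the change at 18 h itself, AREG (adjusted p = 0.0659), PDE4D (0.187), RGS4 (0.182) and PMAIP1 (0.656) were not called lower. The values below 0 of DUSP5, PLAT and HBEGF, and of RGS4 at 6 h, were called.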

How the results depend on the processing

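The count of 2696 genes with mometasone on indacaterol was 617 (408 up, 209 down) with no replicate block, 1770 (728 down) in a blocked fit of the 2 h libraries, 423 (305 up, 118 down) in a blocked fit of the compared groups alone and 342 (263 up, 79 down) there without the block. It was 1491 (920 up, 571 down) without libraries over 20% mitochondrial. Leaving out 1 replicate gave 1185 to 3179 genes (764 to 1696 up, 421 to 1483 down), lowest without replicate 1. With all libraries scaled to the same sum, 2395 rose and 481 fell. The 246 genes changed at least 2-fold became 370 with a pseudocount of 0.1 and 131 with 5, and 231 to 260 with a replicate left out. The pairing check by correlation was not met for replicate 1 (-0.03). Replicates 2 and 5 with both drugs were closer to an indacaterol library of another number. Replicate numbers may therefore not pair these libraries. For the difference between backgrounds (294 genes) the counts were 60 with no block, 120 and 35 in the compared groups with and without it, and 178 to 506 with a replicate left out. For mometasone against vehicle (745) they were 295, 438 and 209. CFTR, not called, had a log2 change of -0.22, which ran from -0.37 to 0.027 with a replicate left out, the latter without replicate 2. The causes were not tested.

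Of the 77 called named genes 56 kept their calls in all 17 alternatives. Without the block NCOA2, NCOA3, PDE4D, BHLHE40, EGFR, BMF, CDKN2C, RGS4 and WNK1 were among those that lost theirs. Without replicate 1 NCOA2 (log2 0.23, adjusted p = 0.467) and WNK1 (0.14, adjusted p = 0.605) lost theirs. Read depth is unknown, so the precision of low values cannot be given.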

Other observations

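The following genes lie outside the named set and were picked after their values were seen, so no pattern among them is tested. SLC26A2, a sulfate transporter, went from 26.3 ± 11.8 with indacaterol to 147 ± 39 with both drugs (SD, n = 5 each; log2 2.50, limma adjusted p = 5.61e-28). SLC22A5, a carnitine transporter, went from 29.7 ± 4.59 to 168 ± 27.9 (SD, n = 5 each; log2 2.46). FLVCR2 and SLC16A14 rose by 2.33 and 2.15 on the log2 scale. FOXO1, a forkhead transcription factor that insulin signalling keeps out of the nucleus, went from 4.39 ± 1.31 to 28.1 ± 4.2 (SD, n = 5 each), while ALOX5AP, an accessory protein of leukotriene synthesis, was at most 0.34 with indacaterol and at least 4.27 with both drugs.

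Further falls included KRT16, a keratin of stressed epithelium and a close relative of KRT17, with means of 5.36 and 1.29 (log2 -1.47), and EFNA1, an ephrin ligand, with 163 and 66 (log2 -1.29). DDIT4, an inhibitor of mTORC1 and a textbook glucocorticoid target, had a smaller log2 change on indacaterol than on vehicle (difference -1.45), with means of 34.6 with vehicle, 326 with mometasone, 104 with indacaterol and 344 with both drugs. SOX9, an airway progenitor transcription factor gene, had means of 3.5 with indacaterol and 15.2 with both drugs at 2 h, and log2 changes of 1.88 at 1 h, -0.22 at 6 h and -0.59 at 18 h.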
